A study of Mus musculus with 6 samples.

Results

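MHC class II presentation genes were compared between wild type (WT) and progranulin knockout (PGRN KO) mouse macrophages. Progranulin, the product of Grn, is a glycoprotein that cells secrete and also send to lysosomes. The 8 genes were taken by name from a table of 54532 genes: H2-Aa, H2-Ab1 and H2-Eb1, which encode class II chains, Cd74, H2-DMa, H2-DMb1, H2-DMb2 and Ciita. Polyadenylated RNA was sequenced in 3 WT libraries, with replicate numbers 1, 2 and 3, and in 3 PGRN KO libraries, with numbers 4, 5 and 6. Per the labels, all 6 libraries came from C57BL/6J peritoneal macrophages that were plated at 2000000 cells per well, kept overnight and then challenged with Candida albicans for 6 hours at 1 fungal cell per macrophage. No unchallenged library was analysed here, so every value below describes cells that had met the fungus. The text of the study calls the sequenced cells bone marrow-derived and gives another ratio of fungus to cells, and the labels were followed. PGRN KO mice were bought as a line on the C57BL/6 background and WT mice came from another supplier, so genotype and source of the mice cannot be told apart. The age of the mice was not stated in the sources used here. Nothing in the labels says that the libraries came from separate animals, and p-values measure the spread between these libraries, which may be technical.

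MHC class II molecules are pairs of an alpha and a beta chain that carry peptides of ingested proteins to the cell surface, where CD4+ T cells read them. New pairs are held by the invariant chain, encoded by Cd74, which fills the groove until endosomal proteases degrade it and H2-DM exchanges its last fragment for a peptide. CIITA is the coactivator that switches on these genes together, through factors bound to short X and Y boxes in their promoters, and interferon gamma is a classical inducer of it in macrophages, whereas B cells and dendritic cells express class II without such a stimulus. C57BL/6 mice lack a functional alpha chain for the I-E molecule, so that H2-Aa and H2-Ab1 form their I-A molecule while H2-Eb1 is left without its partner.

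Values are given as FPKM, which is a fragment number divided by gene model length and by library size, and the libraries held 15996786 to 17551619 counted fragments. The library size recovered from the values was not this counted number. It was 0.925 to 1.03 times the counted number in WT and 1.00 to 1.09 times in PGRN KO, so the scaling itself differed somewhat between the genotypes. Grn had 17294 to 20372 fragments in the WT libraries and at most 1 in each PGRN KO library. PGRN KO replicate 6 stood apart. In it a gene's deviation from its mean over all 6 libraries fell with gene length. That mean takes in both genotypes and replicate 6 itself, so the deviations of the libraries depend on each other. Spearman's rho across 8882 genes, which are not independent replicates, was -0.47 in replicate 6, against 0.15 to 0.24 in the other 5 libraries. The 1106 genes of 1000 to under 2000 bases had a median deviation of 0.31 on the log2 scale in this library and of -0.09 to -0.03 in the others. Of the 8 genes all but Ciita have gene models in this class, with 1184 to 1874 bases, and the tested class II genes are therefore also given without this library.

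Short stretches of promoter that carry the X and Y boxes are shown because they are what these genes share beyond their products. They were read from RefSeq windows of 250 bases before to 50 bases after each transcript start (GRCm38.p6). Each line gives 51 bases, 5′ to 3′ on the strand of the gene, and capitals mark the Y box letters TGATTGG and, upstream of them, the letters GNAAC of the X box.
H2-Aa (chr17:34287863-34287913, minus strand): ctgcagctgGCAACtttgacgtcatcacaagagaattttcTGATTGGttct
H2-Eb1 (chr17:34305766-34305816, plus strand): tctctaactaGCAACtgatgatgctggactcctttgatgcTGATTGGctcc
H2-DMb1 (chr17:34153088-34153138, plus strand): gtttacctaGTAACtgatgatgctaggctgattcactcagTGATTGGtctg
H2-DMb2 (chr17:34145117-34145167, plus strand): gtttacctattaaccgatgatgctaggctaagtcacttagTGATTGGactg
H2-Ob (chr17:34238806-34238856, plus strand): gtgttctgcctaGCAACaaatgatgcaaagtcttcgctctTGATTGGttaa

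The letters TGATTGG were found on either strand in 7.82% of all 32851 windows, and GNAAC followed by TGATTGG after 15 to 45 bases in 0.852%. H2-Aa and H2-DMb1 had 26 bases between the motifs, H2-Eb1 had 25 and H2-Ob had 23. In H2-DMb2 the Y letters were present and the letters GNAAC were not found upstream of them. H2-DMb1 and H2-DMb2 had 45 of the 51 bases in common, and the 6 substitutions from H2-DMb1 to H2-DMb2 were G10T, T15C, G30A, T32G, C38T and T48A, counted from 1 at the first base shown. The motifs were chosen after the windows had been read, and a match describes letters, not binding. The windows of H2-DMa lie upstream of the gene start in the deposited table and held no TGATTGG, and H2-Ab1 and Ciita had no entry. The stretches shown for H2-DMb2 and H2-DMb1 begin downstream of the deposited gene starts (34143307 and 34153072). For H2-DMb2 in particular the stretch may not be the promoter of the gene model that was counted. Cd74 was left out of this look-up, so the boxes were not shown for all of the genes.

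The abundant class II transcripts were lower in PGRN KO than in WT macrophages. H2-Aa, H2-Eb1 and Cd74 fell to between 40.2% and 60.1% of the WT level. H2-Ab1, H2-DMa and H2-DMb1 were at 66.0% to 77.4% of it and did not pass the test with all libraries. H2-DMb2 and Ciita, both at low levels, had more fragments in PGRN KO. Of the 8 genes, 6 had a mean FPKM of at least 1 and were tested with limma on log2(FPKM + 1), and 3 passed an adjusted p of 0.05 as lower and 0 as higher, where 13.8% of all 8882 tested genes were called lower and 10.4% higher. Their median log2 difference (PGRN KO minus WT, called the log2 fold change in the plots) was -0.70, and that of all tested genes was -0.03. The order of the levels in WT was Cd74, H2-Ab1, H2-Eb1, H2-Aa, H2-DMb1, H2-DMa, H2-DMb2 and Ciita, and no neighbours in it overlapped. In PGRN KO the means kept this order, but H2-Eb1 and H2-Aa overlapped.

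**Figure D1:**
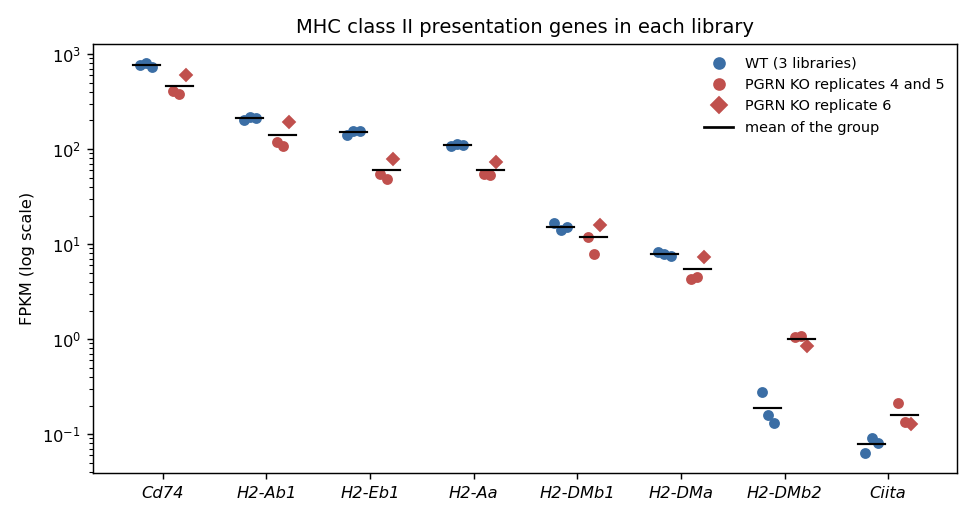
FPKM of the 8 genes (log scale) in each WT library (blue) and PGRN KO library (red, with replicate 6 as a diamond), with a black line at the mean of the group. Cd74, H2-Ab1, H2-Eb1, H2-Aa and H2-DMa are lower in every PGRN KO library than in every WT library, H2-DMb1 overlaps, and H2-DMb2 and Ciita are higher.

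H2-Aa encodes the alpha chain of I-A and lies at chr17:34282744-34287827 on the minus strand (ENSMUSG00000036594, GRCm38). WT replicates 1 to 3 had 109, 114 and 109 FPKM, and PGRN KO replicates 4 to 6 had 54.1, 53.0 and 72.5 FPKM. The WT libraries lay close together, all PGRN KO libraries were below them, and replicate 6 was the highest of the 3. Its WT mean was 111 ± 2.69 FPKM and its PGRN KO mean 59.8 ± 10.95 FPKM (SD, n = 3 each), so that H2-Aa fell to 54.1% of WT (log2 difference -0.89 ± 0.13, SE, adjusted p = 0.00594 in limma). Without replicate 6 the log2 difference was -1.03 with an adjusted p of 0.000273, and H2-Aa passed in all 17 alternatives tried.

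H2-Ab1 encodes the beta chain that pairs with it (chr17:34263209-34269418, plus strand, ENSMUSG00000073421). It stood at 203, 217 and 215 FPKM in WT, and at 118, 107 and 194 FPKM in PGRN KO. The groups did not overlap, but PGRN KO replicate 6 was 1.72-fold above the mean of replicates 4 and 5 and close to the WT range. The means were 212 ± 7.49 and 140 ± 47.2 FPKM (SD, n = 3 each), and the log2 difference of -0.65 ± 0.22 did not pass the test (limma adjusted p = 0.0695). Without replicate 6 the log2 difference was -0.91 with an adjusted p of 0.000517, and after a correction of each library for gene length it was -0.75 with an adjusted p of 0.00606.

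H2-Eb1 encodes the beta chain of I-E (chr17:34305877-34316199, plus strand, ENSMUSG00000060586). It was measured at 142, 153 and 156 FPKM in WT, and at 54.5, 48.8 and 78.5 FPKM in PGRN KO. Every PGRN KO library was far below every WT library, replicate 6 included. H2-Eb1 thus fell from a mean of 151 ± 7.36 to 60.6 ± 15.7 FPKM (SD, n = 3 each), which is 40.2% of WT (log2 difference -1.33 ± 0.17, adjusted p = 0.00397 in limma). It had the lowest log2 difference among the 6 tested class II genes, reached -1.53 without replicate 6 (adjusted p = 0.000273) and passed in all 17 alternatives.

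Cd74 encodes the invariant chain and is transcribed from chromosome 18 (ENSMUSG00000024610). It was the most abundant of the 8 genes, at 776, 796 and 732 FPKM in WT, and at 409, 376 and 600 FPKM in PGRN KO, so that the groups did not overlap and replicate 6 was again the highest PGRN KO library. Cd74 fell from a mean of 768 ± 33.0 to 462 ± 121 FPKM (SD, n = 3 each), with a log2 difference of -0.76 ± 0.18 (adjusted p = 0.0252 in limma). Ordered by mean FPKM among all genes, Cd74 stood at place 56 in WT and at place 102 in PGRN KO. The call was lost with no filter on low values (adjusted p = 0.0816) and when WT replicate 1, 2 or 3 (0.0969, 0.0942 and 0.0721) or PGRN KO replicate 4 or 5 (0.0740 and 0.0636) was left out. Without PGRN KO replicate 6 the log2 difference was -0.97 with an adjusted p of 0.000476. The summed FPKM of H2-Aa, H2-Ab1, H2-Eb1 and Cd74 was 1241 ± 35.4 in WT and 722 ± 195 in PGRN KO, or 58.2% of the WT level. In bulk libraries such as these, fewer cells that express a gene and less RNA per cell cannot be told apart.

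H2-DM is the peptide exchange factor, made of the product of H2-DMa and that of H2-DMb1 or H2-DMb2. H2-DMa (chr17:34135182-34139101, plus strand, ENSMUSG00000037649) was measured at 8.34, 7.83 and 7.56 FPKM in WT, and at 4.33, 4.54 and 7.40 FPKM in PGRN KO. The groups were separate only by the small gap between WT replicate 3 and PGRN KO replicate 6. The means were 7.91 ± 0.395 and 5.42 ± 1.72 FPKM (SD, n = 3 each), and the log2 difference of -0.50 ± 0.18 did not pass (limma adjusted p = 0.0825). Without replicate 6 it was -0.71 with an adjusted p of 0.00101.

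H2-DMb1 (chr17:34153072-34160230, plus strand, ENSMUSG00000079547) was at 16.7, 13.9 and 15.2 FPKM in WT, and at 11.8, 7.86 and 15.8 FPKM in PGRN KO. Here the groups overlapped, since replicate 6 was within the WT range. The means were 15.3 ± 1.41 and 11.8 ± 3.98 FPKM (SD, n = 3 each), with a log2 difference of -0.39 ± 0.22 that did not pass (adjusted p = 0.236 in limma), and it was -0.61 without replicate 6 (adjusted p = 0.0281) but -0.15 without replicate 5 (adjusted p = 0.512).

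H2-DMb2 (chr17:34143307-34151553, plus strand, ENSMUSG00000037548), the second beta chain gene of H2-DM, went the other way. It was measured at 0.280, 0.158 and 0.130 FPKM in WT, and at 1.05, 1.08 and 0.846 FPKM in PGRN KO, from 8, 4 and 4 fragments in WT and 31, 35 and 25 in PGRN KO. All PGRN KO libraries were above all WT libraries, and replicate 6 was the lowest of them. From 0.189 ± 0.0796 to 0.991 ± 0.127 FPKM (SD, n = 3 each), the PGRN KO mean was 5.24-fold higher. The summed fragments, 16 in WT and 91 in PGRN KO, had a ratio of 5.27 (95% exact interval 3.07 to 9.60, counting error only, since the reads carried no molecular identifiers). H2-DMb2 was under the mean FPKM of 1 needed for the main test. With no filter on low values its log2 difference was 0.74 (adjusted p = 0.0154 in limma), a fit in which 2.63% of 22912 genes were called higher. With limma voom on recovered fragments, over genes with a mean of at least 10 fragments, it was 2.35 ± 0.37 with an adjusted p of 0.00385, and 10.4% of 11725 genes were called higher there. Of the 31-base words in the transcripts of H2-DMb2, 29.7% also occur in those of H2-DMb1, so fragments of both genes could be split between them in counting.

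Ciita (chr16:10480059-10528418, plus strand, ENSMUSG00000022504) was close to the limit of what this depth shows. It was at 0.0627, 0.0922 and 0.0814 FPKM in WT, and at 0.212, 0.133 and 0.127 FPKM in PGRN KO, from 10, 13 and 14 and from 35, 24 and 21 fragments. The groups did not overlap, and PGRN KO replicate 4 was the highest. The means were 0.0787 ± 0.0149 and 0.157 ± 0.0473 FPKM (SD, n = 3 each), and the 37 fragments in WT and 80 in PGRN KO had a ratio of 2.00 (95% exact interval 1.34 to 3.04, counting error only). The difference did not pass with no filter (limma adjusted p = 0.207) or with voom (log2 difference 0.95 ± 0.34, adjusted p = 0.0781). Ciita overlaps Dexi on the opposite strand, measured at 0.374 to 1.03 FPKM, and a strand setting for the counting was not stated in the sources used here. Among the 22912 genes above 0 in any library, 13.3% had all PGRN KO libraries above all WT libraries, as H2-DMb2 and Ciita did.

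Leaving out single libraries showed how far replicate 6 set these calls. Without it, all 6 tested class II genes passed as lower, in a fit that called 25.1% of all tested genes lower. With all libraries, 5 of the 6 had separate groups with PGRN KO lower, where 27.6% of the 8882 tested genes did, and none was separate with PGRN KO higher, as 21.2% were. H2-Aa, H2-Ab1, H2-Eb1, Cd74, H2-DMa and H2-DMb1 were 1.35-fold to 1.72-fold higher in replicate 6 than in the mean of replicates 4 and 5, whereas H2-DMb2 was at 0.795 and the long gene Ciita at 0.739 of that mean. After the correction for gene length, with replicate 6 kept, every tested class II gene except H2-DMb1 (adjusted p = 0.0543) passed, in a fit that called 17.1% of all tested genes lower.

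**Figure D2:**
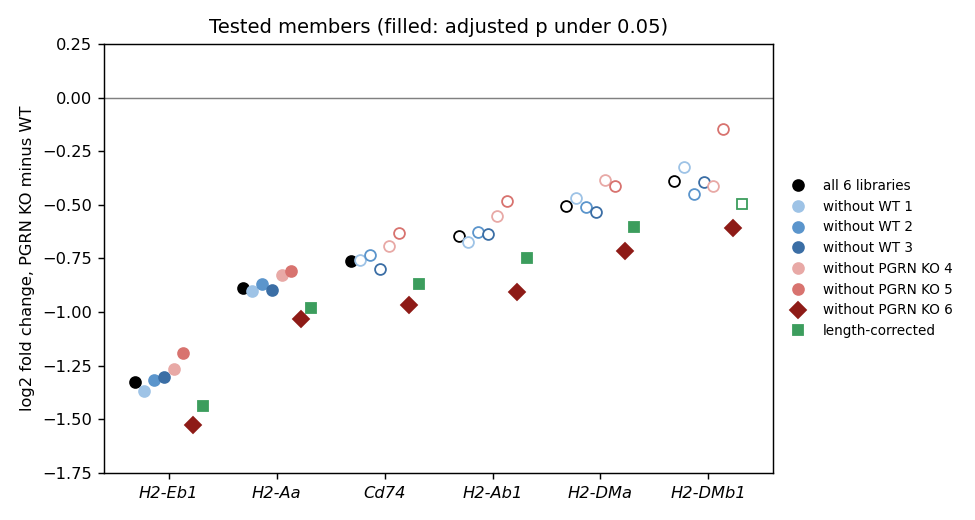
Log2 fold change (PGRN KO minus WT) of the 6 tested class II genes with all 6 libraries (black), with each library left out in turn and after a correction for gene length, with filled symbols where the adjusted p was under 0.05. H2-Eb1 and H2-Aa are filled throughout, and leaving out PGRN KO replicate 6 gives the lowest value for every gene and fills all 6.

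FPKM is scaled per length, so ratios between genes of 1 library could be compared, and such ratios also cancel what moves both genes alike. H2-Eb1 to H2-Ab1 was 0.700, 0.705 and 0.728 in WT and 0.461, 0.456 and 0.405 in PGRN KO. All PGRN KO ratios were well below all WT ratios, so that relative to WT H2-Eb1 was lower by more than H2-Ab1 in every PGRN KO library, with a log2 difference of -0.69 (exact two-sided permutation p = 0.1, the smallest that 3 against 3 libraries allow, and 0.167 adjusted over 5 ratios). H2-Aa to H2-Ab1 was 0.535, 0.523 and 0.510 in WT and 0.458, 0.494 and 0.374 in PGRN KO, again without overlap (log2 difference -0.25, exact permutation p = 0.1, adjusted 0.167, but -0.14 without PGRN KO replicate 6).

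Cd74 to the sum of H2-Aa and H2-Ab1 was 2.26 to 2.49 in WT and 2.25 to 2.38 in PGRN KO. These ranges overlapped, so that a difference in the balance of invariant chain and I-A chains was not detectable (log2 difference -0.04, exact permutation p = 0.4, adjusted 0.4, with -0.0039, -0.07 and -0.012 when WT replicate 1, WT replicate 3 or PGRN KO replicate 6 was left out). H2-DMa to the sum of H2-DMb1 and H2-DMb2 overlapped as well, at 0.490 to 0.556 in WT and 0.336 to 0.508 in PGRN KO (log2 difference -0.28, exact permutation p = 0.3, adjusted 0.375, and -0.11 without PGRN KO replicate 4). H2-DMb2 to H2-DMb1 was 0.0167, 0.0114 and 0.00853 in WT and 0.0886, 0.138 and 0.0535 in PGRN KO, a log2 difference of 2.88 without overlap (exact permutation p = 0.1, adjusted 0.167). H2-DMb1 was the more abundant of this pair in all 6 libraries.

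**Figure D3:**
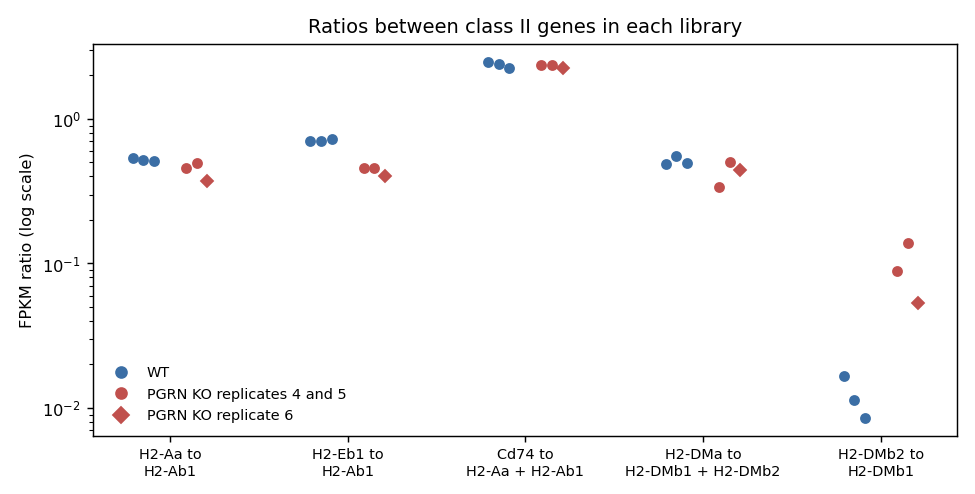
Ratios of FPKM between class II genes (log scale) in each WT library (blue) and PGRN KO library (red, with replicate 6 as a diamond). H2-Eb1 to H2-Ab1 lies at 0.700 to 0.728 in WT and at 0.405 to 0.461 in PGRN KO, Cd74 to the I-A chains overlaps, and H2-DMb2 to H2-DMb1 is higher in PGRN KO.

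H2-DMa, H2-DMb2, H2-DMb1, H2-Ab1, H2-Aa and H2-Eb1 lie within 252.3 kb of chromosome 17 (34092340 to 34344643), from H2-Oa to H2-Ea-ps, a stretch chosen after the values were seen. It also holds genes for class I presentation, whose proteins cut and carry cytosolic peptides. Of 20 genes there, 10 were tested, 4 rose and 3 fell, where 10.4% of all 8882 tested genes were called higher and 13.8% lower. The genes that rose were Psmb9 (limma log2 difference 1.34, adjusted p = 0.00633), Tap2 (1.04, 0.00978), Psmb8 (0.99, 0.0357) and Tap1 (0.71, 0.0206), and they lie side by side between H2-DMb1 and H2-Ab1. The genes that fell were H2-Eb1, H2-Aa and the chromatin reader gene Brd2 (-0.32, 0.0475). Psmb8 did not pass without WT replicate 1, 2 or 3 (adjusted p = 0.117, 0.0999 and 0.104) or PGRN KO replicate 4 (0.0634), nor did Tap1 without WT replicate 1 or 3 (0.0854 and 0.0797) or PGRN KO replicate 4 (0.0584). Brd2 passed in only 7 of 17 alternatives and lost its call on the TPM scale (0.218), with quantile normalization (0.122), with no trend (0.0515), with voom on genes of at least 10 fragments (0.0538) and in all leave-outs (0.0514 to 0.178) except that of PGRN KO replicate 6 (0.0170). With no filter on low values Psmb8 (0.105), Tap1 (0.0610) and Brd2 (0.0793) did not pass. H2-DMb1, the nearest tested class II gene on the one side, and H2-Ab1, the nearest on the other, were lower but did not pass, as given above.

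**Figure D4:**
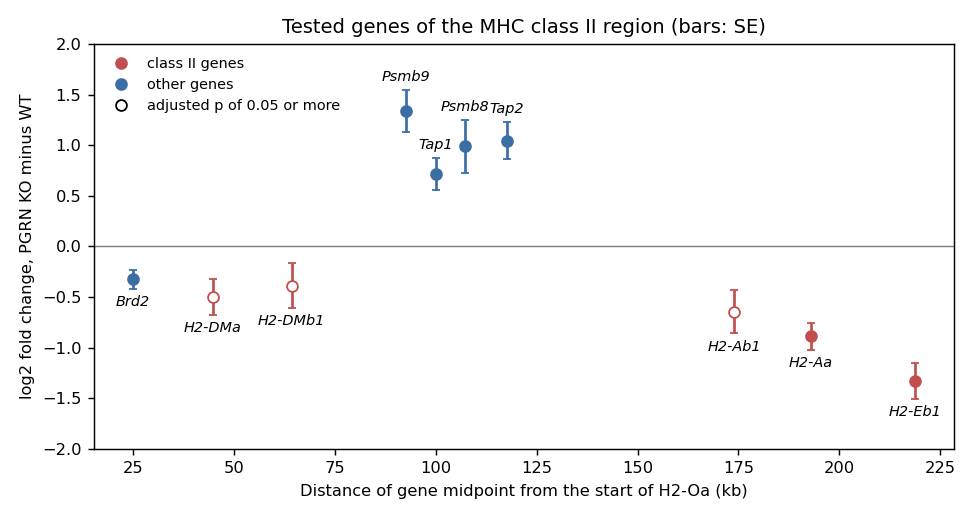
Log2 fold change (PGRN KO minus WT, bars are SE) of the 10 tested genes of the class II region against the distance of the gene's midpoint from the start of H2-Oa in kb, with class II genes in red, other genes in blue and open symbols where the adjusted p was 0.05 or more. Psmb9, Tap1, Psmb8 and Tap2, between 92.5 and 118 kb, are above 0, and all class II genes plotted, from H2-DMa at 44.8 kb to H2-Eb1 at 219 kb, are below 0.

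The relatives of the class II genes were measured at low levels, and 0 of the 4 in the table reached the mean FPKM of 1. H2-Ob, the beta chain of H2-O, an inhibitor of H2-DM found mainly in B cells, was at 0.190, 0.214 and 0.281 FPKM in WT, and at 1.23, 0.955 and 0.991 FPKM in PGRN KO. Like H2-DMb2 it had no overlap between genotypes, and its mean was 4.63-fold higher in PGRN KO (limma voom adjusted p = 0.00216, and 0.0145 with no filter). H2-Oa, the alpha chain of H2-O, overlapped between the genotypes, with means of 0.487 ± 0.140 and 0.733 ± 0.227 FPKM (SD, n = 3 each). H2-Eb2 was at 0.297 ± 0.0731 and 0.466 ± 0.0334 FPKM (SD, n = 3 each), and H2-Ea-ps, the pseudogene at the I-E alpha chain locus, was listed at 0 in all 6 libraries.

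Proteases and other proteins process antigen and the invariant chain in endosomes and lysosomes. Of 14 tested genes for peptide loading and turnover, 2 rose, 0 fell and 12 did not pass in limma, with a median log2 difference of 0.13, and 0 were lower at an unadjusted p under 0.05 or with limma voom. The genes that rose were the lysosomal proteases Ctsd, from 1372 ± 15.7 to 2592 ± 535 FPKM (limma log2 difference 0.90, adjusted p = 0.00987), and Ctsb, from 1217 ± 13.3 to 1746 ± 252 FPKM (0.51, 0.0317). Ctsd did not pass without WT replicate 1 (adjusted p = 0.0549), nor did Ctsb without WT replicate 1, 2 or 3 (0.132, 0.102 and 0.0964) or PGRN KO replicate 4 (0.0628), and with no filter neither passed (0.0548 and 0.131). Ctss, the cathepsin best known for cleaving the invariant chain, stood at 2810 ± 90.1 and 2902 ± 469 FPKM (log2 difference 0.04, adjusted p = 0.876). Ifi30, the lysosomal thiol reductase, stood at 138 ± 4.07 and 163 ± 28.3 FPKM (0.23, 0.234).

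Among 17 tested genes of the factors that bind class II promoters and of other regulators of Ciita, 1 rose, 2 fell and 14 did not pass. The shares of all 8882 tested genes were 10.4% called higher and 13.8% called lower. Kat2b, an acetyltransferase, rose from 2.99 to 5.70 FPKM (limma log2 difference 0.73, adjusted p = 0.0186). Irf8, a transcription factor of the myeloid and B lineages, fell from 54.7 ± 2.51 to 36.9 ± 6.65 FPKM (-0.57, 0.0293), and Atf1 fell from 16.2 to 11.4 FPKM (-0.47, 0.00952). None of these calls held in all leave-outs: Kat2b did not pass without WT replicate 1, 2 or 3 or PGRN KO replicate 5 (adjusted p = 0.0643, 0.0782, 0.0662 and 0.0545), Irf8 without WT replicate 1, 2 or 3 (0.0943, 0.0958 and 0.102) and Atf1 without WT replicate 1 or 3 (0.0573 and 0.0524). Nor did Kat2b and Irf8 with no filter (0.0589 and 0.0754), Irf8 with the length correction (0.0586) or Atf1 on the TPM scale (0.0762). Rfx5, a subunit of the complex that binds the X box, was under the filter at 0.520 ± 0.0769 FPKM in WT against 1.31 ± 0.279 FPKM in PGRN KO (SD, n = 3 each). It was 2.52-fold higher, without overlap, and passed with limma voom (adjusted p = 0.00573) and with no filter (adjusted p = 0.0489). Spi1 went from 75.0 ± 5.90 to 55.0 ± 12.8 FPKM, without overlap, but did not pass with all libraries (limma log2 difference -0.46, adjusted p = 0.0834). Without PGRN KO replicate 6 Spi1 passed as lower (-0.64, 0.00246), as did Nfyc (-0.26, 0.0421), and both passed after the length correction (0.0169 and 0.0470).

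Of 16 tested genes on the path from interferon gamma to Ciita, 1 rose, 2 fell and 13 did not pass. The shares of all 8882 tested genes were 10.4% called higher and 13.8% called lower. Jak1, a kinase of the receptor, fell from 63.0 to 40.9 FPKM (limma log2 difference -0.62, adjusted p = 0.0146), but did not pass without WT replicate 1, 2 or 3 (adjusted p = 0.0697, 0.0685 and 0.0514) or on the TPM scale (0.0621). Il10, a cytokine that lowers class II on macrophages, fell from 232 ± 56.8 to 77.2 ± 10.5 FPKM (-1.55, 0.0034). Irf1 stood at 86.4 ± 8.74 and 102 ± 14.9 FPKM (0.23, 0.265) and Ifng at 9.96 and 9.86 FPKM (-0.03, 0.908).

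Class I presentation genes, set beside them for comparison, had 7 of 17 tested genes higher, 1 lower and 9 that did not pass, with a median log2 difference of 0.47. The shares of all 8882 tested genes were 10.4% called higher and 13.8% called lower. Of the 5 tested costimulation genes 1 rose and 1 fell. Cd40 went from 17.4 to 38.2 FPKM (limma log2 difference 1.06, adjusted p = 0.0149, but 0.0637 and 0.0617 without WT replicate 1 or 3, and 0.0518 with no filter). Cd80 went from 103 to 76.6 FPKM (-0.43, 0.0177, but 0.0942, 0.0840 and 0.0648 without WT replicate 1, 2 or 3, 0.0944 on the TPM scale and 0.0598 with quantile normalization).

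Markers of other cells that carry class II were read beside the class II genes. The 22 B cell markers summed to 17.9, 19.1 and 17.1 FPKM in WT and to 51.9, 46.3 and 62.7 FPKM in PGRN KO, 2.97-fold higher, while the class II sum was lower in the same libraries. All 6 tested B cell markers rose, where 10.4% of all 8882 tested genes were called higher. Of the 22 markers 16 had all PGRN KO libraries above all WT libraries, as did 13.3% of the 22912 genes above 0 in any library. Jchain was the 1 marker separate in the other direction. None of the markers was at 0 in every library. Ighm rose from 3.48 to 13.4 FPKM (limma log2 difference 1.69, adjusted p = 0.00119), Igkc from 5.07 to 17.6 FPKM (1.58, 0.00305), Cd79a from 0.960 to 3.78 FPKM (1.29, 0.00327) and Cd79b from 0.633 to 1.70 FPKM (0.71, 0.0366). Cd79b did not pass without WT replicate 1, 2 or 3 (adjusted p = 0.128, 0.0974 and 0.0735) or PGRN KO replicate 4 (0.0651), with no filter (0.112) or with quantile normalization (0.0556). Ms4a1, a B cell surface protein, and Pax5, a transcription factor of the B lineage, were under the filter. Ms4a1 went from 0.0598 to 0.345 FPKM and Pax5 from 0.0682 to 0.268 FPKM, both without overlap. H2-DMb2 and H2-Ob thus differed in the same direction as the B cell markers and H2-Aa, H2-Eb1 and Cd74 in the opposite one, and the part of B cells in either was not tested.

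**Figure D5:**
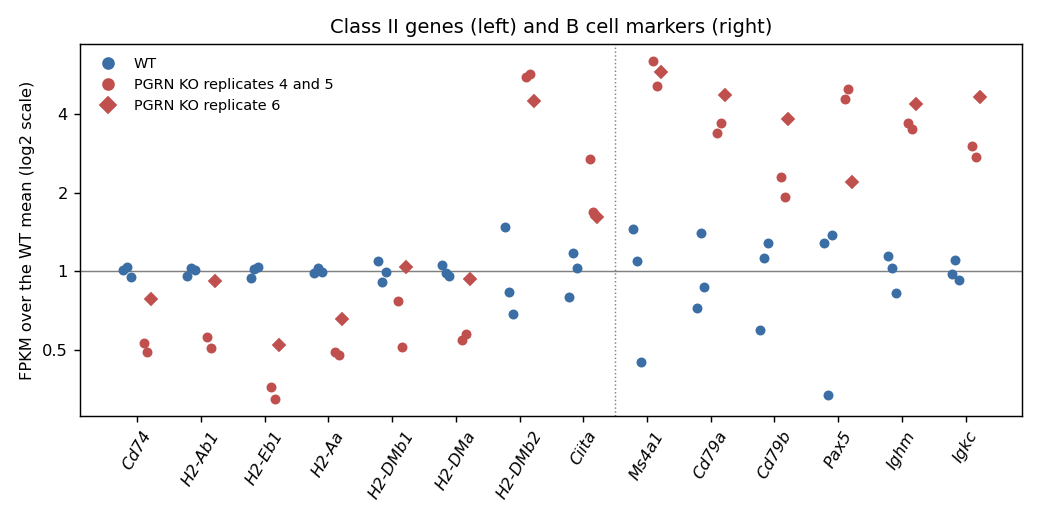
FPKM over the WT mean (log2 scale) of the 8 class II presentation genes, left of the dotted line, and of 6 B cell markers, right of it, in each WT library (blue) and PGRN KO library (red, with replicate 6 as a diamond). H2-DMb2, at 4.47 to 5.72 times the WT mean in PGRN KO, lies among the B cell markers, whereas H2-Eb1 lies at 0.324 to 0.521.

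Of the 4 tested dendritic cell markers 3 fell, Ccr7, Itgax and Clec10a, where 13.8% of all 8882 tested genes were called lower. The sum over 12 markers was 71.8 to 82.0 FPKM in WT against 52.1 to 64.6 FPKM in PGRN KO, lower without overlap, as the class II sum was. Ccr7, a chemokine receptor of migrating dendritic cells, fell from 28.9 to 16.6 FPKM (adjusted p = 0.00775 in limma). Itgax, which macrophages also express, fell from 25.2 to 19.0 FPKM (0.0326) and did not pass without WT replicate 1, 2 or 3 (0.118, 0.125 and 0.0967) or PGRN KO replicate 5 (0.0637), with no filter (0.0645), on the TPM scale (0.161) or with quantile normalization (0.0692). Clec10a fell from 2.65 to 0.958 FPKM (0.00201). Under the filter, Xcr1 fell from a mean of 1.16 to 0.388 FPKM and Flt3 from 0.320 to 0.120 FPKM. Both were without overlap and passed with limma voom (adjusted p = 0.00321 and 0.0141). In the other direction, Dpp4 was 2.72-fold higher without overlap, at a mean of 0.113 against 0.309 FPKM (limma voom adjusted p = 0.0133). Ly75, at 17.5 and 20.0 FPKM, did not pass (0.582) but was higher without PGRN KO replicate 6 (log2 difference 0.37, adjusted p = 0.0071). Ccr7, Itgax and Ly75 make up most of the sum. Cd209a was listed at 0 in all libraries. Of the 2 tested neutrophil markers, S100a8 fell from 49.98 to 23.3 FPKM (0.00142), while Mmp8 stood at 20.2 and 19.5 FPKM (0.717) and Ly6g and Cxcr2 were listed at 0 in all libraries, so that the lower sum, 42.7 to 43.9 against 68.3 to 73.4 FPKM in WT, came from S100a8. The 5 tested monocyte markers were split, with 2 higher and 3 lower and a median log2 difference of -0.40. Chil3 rose from 1328 to 2343 FPKM (0.00505) and made up most of the higher sum, 2366 to 2677 against 1554 to 1679 FPKM in WT, and Plac8 rose from 2.73 to 6.51 FPKM (0.0117, but 0.0525 without WT replicate 3). Ly6c2 fell from 11.99 to 3.39 FPKM (0.00119), Fn1 from 263 to 152 FPKM (0.0411) and F13a1 from 1.65 to 1.01 FPKM (0.0203). Fn1 did not pass without WT replicate 1, 2 or 3 (0.127, 0.125 and 0.106), and F13a1 passed in the leave-outs only without PGRN KO replicate 6 (0.0106). On the TPM scale neither passed (0.0935 and 0.0573). The part of these cells in the class II result was not tested.

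Of the marker lists read, that of macrophages, the labelled cell type, had the highest sum, 11618 to 12561 FPKM in WT and 10445 to 14377 FPKM in PGRN KO, led by Lyz2 and Cd14. Of its 8 tested markers 1 rose, 1 fell and 6 did not pass. Mertk rose from 1.41 to 3.24 FPKM (limma adjusted p = 0.0064) and Csf1r fell from 32.5 to 24.7 FPKM (0.0178). Markers of large peritoneal macrophages summed to 206 to 227 and 212 to 234 FPKM, most of it Adgre1, at 186 and 176 FPKM (adjusted p = 0.591 in limma). Of the 5 tested 2 rose, Cd5l from 7.21 to 22.8 FPKM (0.0022) and Icam2 from 3.10 to 5.10 FPKM (0.00914), and 0 fell, at an unadjusted p under 0.05 or with voom as well. Under the filter, Timd4 was lower in PGRN KO without overlap, at a mean of 0.149 against 0.0258 FPKM, and did not pass with no filter (limma adjusted p = 0.176). The markers of small peritoneal macrophages, which carry more class II, were led by Retnla and Itgax, and had 1 tested marker higher, Mgl2, and 1 lower, Itgax. They summed to 62.4 to 67.3 and 55.1 to 70.7 FPKM, and the ranges of both lists overlapped between the genotypes. In the small macrophage list only PGRN KO replicate 6, at 70.7 FPKM, overlapped WT, while replicates 4 and 5 were at 55.1 and 57.0 FPKM. Without replicate 6, Retnla (limma log2 difference -0.42, adjusted p = 0.0103) and Itgax (-0.31, 0.00769) passed as lower. Mgl2 then passed as higher (0.59, 0.00166). T cell markers, led by Trac and Trbc2, summed to 7.06 to 8.70 FPKM in WT and 8.89 to 15.1 FPKM in PGRN KO. Mast cell markers summed to 9.96 to 13.4 and 18.6 to 24.4 FPKM, and Tpsb2 and Cma1 rose (0.0025 and 0.00175), while Hdc stood at 8.43 and 8.48 FPKM. The sums for natural killer cells, eosinophils and mesothelium or fibroblasts were at most 3.72 FPKM in every library. The part of each of these in the class II result was not tested.

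Within the genotypes the 6 tested class II genes varied together over the 6 libraries, with pairwise Pearson correlations of 0.765 to 0.993 of the deviations from the mean of each genotype, highest for H2-Ab1 with H2-Eb1 and lowest for H2-DMa with H2-DMb1. All pairs share replicate 6, which had the farthest value for most of these genes, and the correlations are a description. The 5 other genes whose deviations were most like the mean of H2-Aa, H2-Ab1, H2-Eb1 and Cd74 were Cd5l, Sphk1, Rpl18, Igsf8 and Dapk3, with Pearson correlations of at least 0.999 over the 6 libraries, and all 5 were highest in replicate 6 within PGRN KO. Cd5l, a secreted macrophage protein, rose in PGRN KO (limma log2 difference 1.51, adjusted p = 0.0022), as did Igsf8 (0.73, 0.0231, but 0.0777 to 0.0927 when any WT replicate was left out and 0.0675 with no filter), whereas the 4 class II genes were lower.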

How the data were processed

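The authors deposited FPKM per gene and library. Per the submitters' processing notes, base calling used CASAVA, alignment HISAT2 2.0.5, counting featureCounts 1.5.0-p3 and differential expression DESeq2 1.20.0, on GRCm38. The text of the study names other tools and versions for part of this. FPKM times gene length came out as whole multiples of 1 step per library (tolerance 0.001), which gave the fragments; 0 columns were left unmapped.

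Here genotypes were compared on log2(FPKM + 1), which understates fold changes of low genes, for the 8882 genes whose FPKM averaged 1 or more, by moderated linear models (limma 3.58.1, run in R 4.3.3, with a mean-variance trend no covariates and two-sided tests), with Benjamini-Hochberg adjusted p under 0.05 as the threshold. The main fit was also run on simulated counts in which every gene had the same spread setting. They held no deviating library and no trend with gene length, so that run says nothing of the effect of replicate 6. Alternatives were other pseudocounts, filters and scalings, no trend, quality weights, voom, a loess length correction (span 0.5) and each library left out. Voom on genes with a mean of at least 10 fragments, and the length correction without PGRN KO replicate 6, were added after seeing the data.

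The 8 members and the gene lists were chosen with earlier results of these data known. Named were all members, from each pathway list at most 4 genes past the threshold per direction plus Rfx5, Irf1, Ctss, Ifi30, H2-Oa and H2-Ob, at most 3 class I or costimulation genes each, and a fixed choice of B cell markers; Tap1, Brd2, Ifng, H2-Eb2, H2-Ea-ps and some other markers were named after their values were seen. Shared 31-base words were counted in GENCODE transcripts. Some genes under this rule are counted in the lists but not reported here by name.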

Additional observations from a re-analysis of the deposited data

How the results depend on the processing

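None of the 6 tested members changed direction in any alternative, and H2-Aa and H2-Eb1 passed in all 17. The number of class II genes called lower, 3, became 6 with quality weights, 5 with the length correction and 6 with both that correction and replicate 6 of PGRN KO left out, and 2 to 6 when single libraries were left out. The number called higher, 0, became 1 with no filter and 1 with voom on genes of at least 10 fragments, H2-DMb2 in both. It was 0 in the leave-outs too, which says nothing of stability, since H2-DMb2 and Ciita were under the filter there. Of the pathway genes 4 were called higher, against 8 with quality weights, 7 with the length correction, 8 with the correction without replicate 6, and 1 to 7 in the leave-outs. Of them 4 were called lower, against 2 on a TPM scale, 10 with weights, 7 with the correction without replicate 6, and 1 to 8 in the leave-outs. Over all genes 2151 were called, against 1366 with no filter, 4225 with weights, 3659 with the correction without replicate 6, and 713 (without WT replicate 1) to 3668 (without PGRN KO replicate 6) in the leave-outs. Of the calls over all genes 42.8% were higher, and 60.3% on the TPM scale. Ctss, at a log2 fold change of 0.04, was at -0.0822 with weights, -0.0733 with the length correction, -0.0824 with both changes, and -0.0942 (without PGRN KO replicate 6) to 0.104 in the leave-outs, none past the threshold. The ratios between members and the summed levels moved by less than 1 SD of the more variable genotype in every alternative run, but some moved by more than the SD of WT, with leave-out ranges of -0.34 to -0.14 for H2-Aa to H2-Ab1, -0.41 to -0.11 for H2-DMa to both beta chain genes and -1.02 to -0.68 for the class II sum (log2). The cause of these shifts was not tested. Over 40 single genes, 566 of 673 values kept direction and side of the threshold, 89 lost the call, 14 gained it and 4 turned direction. No paired analysis was possible because the genotypes share no replicate numbers. Depth limits H2-DMb2 and Ciita, which rest on 4 to 35 fragments per library, and the 3 libraries per genotype limit every ratio, whose exact p cannot go below 0.1.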
